A study of Mus musculus with 14 samples.

Results

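The miR-181 family was measured in the left ventricle (LV) of male C57Bl/6 mice, aged 3 to 4 months, on single-channel arrays with probes for the miRs of miRBase 16. Sham, HF and HF+E2 mice were compared, with 14 samples on 1 array each. The 4 sham mice were operated on without constriction of the aorta. The 5 HF mice underwent transverse aortic constriction (TAC), a model of pressure overload, and were taken once heart failure had developed, 6 to 8 weeks after surgery. The 5 HF+E2 mice were failing in the same way and then received estradiol at 0.03 mg per kg per day from a pellet that releases it over 10 days. All 3 groups were males of 1 strain with no transgene named in the labels, and the hearts were powdered before extraction, so that each value is a mean over all cell types of the sample. In such bulk RNA, fewer cells of a type and less RNA per cell cannot be told apart.

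The family was taken as the mouse probes named mmu-miR-181a, mmu-miR-181b, mmu-miR-181c, mmu-miR-181d, mmu-miR-181a-1* and mmu-miR-181a-2* (written here without mmu-), chosen by name alone. All 6 were among the 520 mouse miRs that were tested, out of 1037 mouse probes on the array. All 6 lay above the detection threshold of every array, and none was saturated on any array, so that none passed only through 1 group.

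MiR-181 is conserved across vertebrates and is transcribed from clusters that each pair an a or c gene with a b or d gene. miR-181a raises the sensitivity of the T-cell receptor during thymocyte development in mice. miR-181b restrains NF-kB signaling in endothelium by targeting an importin that carries NF-kB into the nucleus. miR-181c is found in mitochondria of rat cardiomyocytes, where it targets a mitochondrially encoded subunit of cytochrome c oxidase. The mature miR-181a and miR-181b are each made from 2 genes and cannot be assigned to either, whereas the arms opposite to miR-181a, marked with an asterisk, come from 1 gene each. The asterisk arms are therefore shown with the main arms. The sequences that the deposited table gives for the 6 miRs are written 5′ to 3′, with bases 2 to 8, the seed, in capitals.

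miR-181a: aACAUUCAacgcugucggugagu

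miR-181b: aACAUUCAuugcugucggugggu

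miR-181c: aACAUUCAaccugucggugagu

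miR-181d: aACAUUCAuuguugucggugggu

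miR-181a-1*: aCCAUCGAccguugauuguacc

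miR-181a-2*: aCCGACCGuugacuguaccuug

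The 4 main arms had 1 seed in common, which was found in 0 of the other tested mouse miRs. Counted from 1 at the 5′ end, miR-181b and miR-181d differed only by C12U, and miR-181a and miR-181b by A9U, C10U and A21G. miR-181c was 1 base shorter than miR-181a and otherwise the same. The probes of the main arms were 2 exact copies of the full complement, and those of miR-181a-1* and miR-181a-2* were repeats of 21 and 20 bases of the 22-base complement, so that probes of this family differ by as little as 1 base per copy, and hybridization of 1 family member to the probe of another was not tested.

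The miR-181a genes lie on different chromosomes. In RefSeq (build GRCm38.p6), Mir181a-1 is at chr1:137966455-137966541 on the plus strand and is followed by Mir181b-1 after 97 bases. Mir181a-2 is at chr2:38852735-38852810 on the plus strand, with Mir181b-2 1019 bases farther on. Mir181c and Mir181d lie 85 bases apart on the minus strand of chromosome 8. The hairpins of the 2 miR-181a genes are shown because the opposite arm of 1 of them, miR-181a-2*, is the probe called lower in what follows; a difference between both opposite arms was not tested. Capitals mark the mature arms that RefSeq annotates, and the first arm, miR-181a itself, is identical in both.

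Mir181a-1: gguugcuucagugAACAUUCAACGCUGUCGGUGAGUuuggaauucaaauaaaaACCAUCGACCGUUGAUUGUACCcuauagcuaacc

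Mir181a-2: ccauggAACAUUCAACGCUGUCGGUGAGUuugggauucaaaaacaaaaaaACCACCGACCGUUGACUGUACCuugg

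The deposited miR-181a-2* sequence starts 3 bases nearer the 3′ end of the hairpin than the arm annotated by RefSeq, and its seed differs accordingly. The miR-181a-1* sequence and the RefSeq arm are identical. The signals of different probes depend on the probe as well as on the miR, so the levels of family members were not ranked against each other.

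The arrays themselves differed between groups. The deposited log2 values carry 1 added constant per array, which was lower by 0.78 log2 units in HF than in sham (exact permutation test, p = 0.00794, the smallest p possible with 4 against 5 mice) and higher by 0.62 in HF+E2 than in HF (p = 0.0397). The negative control probes, on this scale, were lower by 0.79 log2 units in HF than in sham (exact permutation p = 0.0159). Of the 520 miRs, 20 were saturated on all 14 arrays, and their median difference between HF and sham was -0.78, the difference in the constant. The 223 dim miRs, with a mean under 2 log2 units over the average threshold, had a median of -0.27, against -0.02 for the 255 bright and unsaturated miRs. The array header code that separates the 4 sham arrays from all others, and the sham condition, cannot be told apart. The heart muscle miRs miR-1, miR-133a and miR-133b were saturated on all arrays. Of 6 miRs of other tissues, miR-122* was above threshold on 0 arrays, miR-122, of liver, on 1, miR-124 and miR-9, of brain, on 3 and 5, and miR-200c and miR-141, of epithelium, on 6 and 9. miR-141, the only one of them tested, was dim and called lower in HF versus sham (-1.01, adjusted p = 0.00315).

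The main arms of miR-181 differed little between failing and sham LV. miR-181a had a scaled log2 signal of 13.76, 14.15, 14.25 and 14.29 in the sham mice. In the HF mice it was 14.06, 14.24, 14.13, 14.27 and 14.29, and in the HF+E2 mice 13.83, 14.18, 14.17, 14.16 and 14.01. The 3 groups overlapped, and sham 1 and HF+E2 1 were the lowest mice. The sham mean was 14.11 ± 0.24 (SD, n = 4), the HF mean 14.20 ± 0.10 (n = 5) and the HF+E2 mean 14.07 ± 0.15 (n = 5).

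For miR-181b, sham mice averaged 11.71 ± 0.22 (SD, n = 4), HF mice 11.60 ± 0.07 (n = 5) and HF+E2 mice 11.52 ± 0.14 (n = 5). All HF and all HF+E2 values lay below the sham mean, but sham 1, at 11.39, was lower than every HF mouse. For miR-181c, sham mice averaged 10.31 ± 0.17, HF mice 10.24 ± 0.14 and HF+E2 mice 10.13 ± 0.26, with a range of 9.79 to 10.45 in the HF+E2 mice. This was the widest range of miR-181c among the groups and covered both others except for sham 3, at 10.53.

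miR-181d was 10.60, 10.90, 11.06 and 11.04 in sham, and 10.88, 10.92, 10.92, 10.996 and 10.72 in HF. With estradiol it was 10.33, 10.73, 10.67, 10.94 and 10.44, so that 3 of 5 HF+E2 mice lay below every HF mouse and 2 of 5 below every sham mouse. The means were 10.90 ± 0.21 (SD, n = 4), 10.88 ± 0.10 (n = 5) and 10.62 ± 0.24 (n = 5). In the order of group means, sham came first for miR-181b, miR-181c and miR-181d, HF came first for miR-181a, and HF+E2 came last for all 4. None of the neighbours in these orders differed beyond its spread in the tests that follow.

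**Figure D1:**
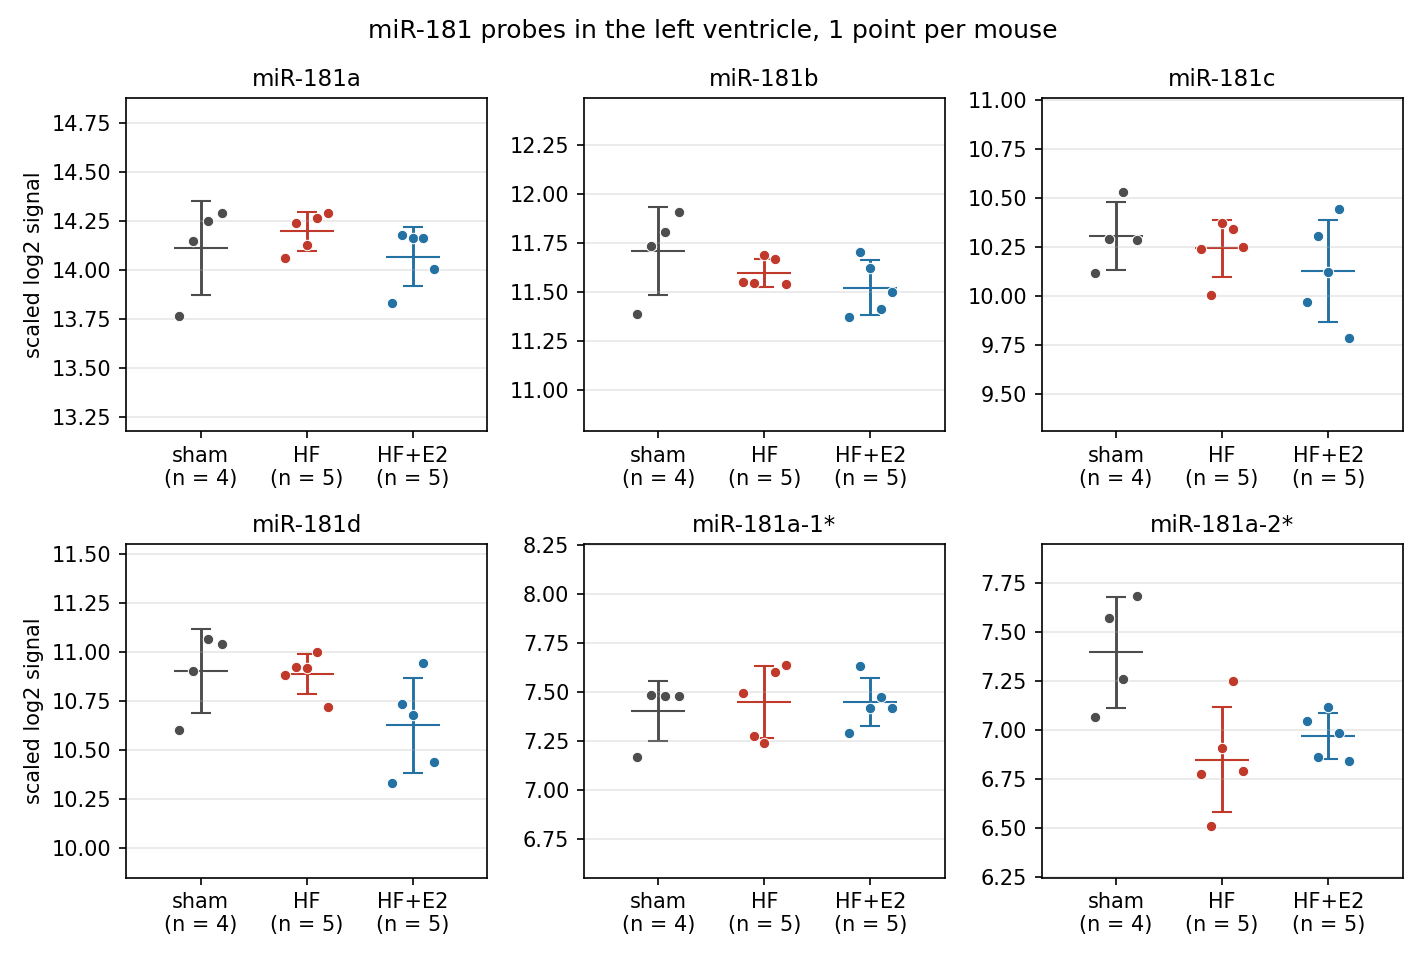
Scaled log2 signal of the 6 miR-181 probes in sham, HF and HF+E2, with 1 point per mouse, a bar at the group mean and whiskers of 1 SD; each panel spans the same number of log2 units around its own values. The groups overlap in every panel, and the clearest shift is that of miR-181a-2*, with means of 7.40 in sham and 6.85 in HF.

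Whether heart failure changed the family was tested in 1 fit of all 520 mouse miRs with limma, in which a call needed a fold change beyond 0.5 log2 units in either direction with an adjusted p below 0.05. In HF versus sham, 139 miRs were called, 26.7% of those tested. Of the 6 miR-181 probes, 0 were called higher and 1 was called lower, against 8.46% and 18.3% of all tested miRs. The median fold change of the 6 probes was -0.04 on the log2 scale, against -0.13 over all miRs. With 1 of 6 called lower, the family did not stand apart from this background.

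None of the 4 main arms passed the test in HF versus sham. The log2 fold change was 0.08 (SE 0.14, adjusted p = 0.704) for miR-181a, and -0.11 (SE 0.14, adjusted p = 0.594) for miR-181b. For miR-181c it was -0.06 (adjusted p = 0.772), and for miR-181d -0.02 (adjusted p = 0.942). The 95% confidence intervals of the 4 arms all lay between -0.41 and 0.39, so that changes of more than 0.5 log2 units in either direction lay outside them on this scaling. Unscaled intensities of the 4 arms were higher in HF by 0.67 to 0.87 log2 units and were called, but the median of all 520 miRs was then also higher, by 0.66. Relative to that median, the shift of the 4 arms lay between -0.21 and 0.22 across 8 scalings of the arrays. miR-181a lay above the median under each of them, and the sign changed between scalings for each of miR-181b, miR-181c and miR-181d. Scalings that only add a constant to each array leave these shifts unchanged, so the 8 scalings were not independent of each other.

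miR-181a-2*, the arm made by the gene on chromosome 2, was the member called lower. Its scaled log2 signal was 7.07, 7.57, 7.26 and 7.68 in the sham mice, and 6.78, 6.51, 6.91, 7.25 and 6.79 in the HF mice. Of the HF mice, 4 lay below every sham mouse, and HF 4, at 7.25, lay within the sham range. The mean fell by 0.55 on the log2 scale (95% CI -0.94 to -0.15, adjusted p = 0.0410), from 7.40 ± 0.28 (SD, n = 4) to 6.85 ± 0.27 (n = 5), a level 1.46-fold lower. The exact permutation test, two-sided, gave p = 0.0317 with no adjustment.

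The probe was dim, with a mean 1.56 log2 units above the mean threshold, and 21.5% of dim miRs were called lower in the same comparison. Without scaling, its intensity was 0.24 log2 units higher in HF (limma adjusted p = 0.360). This was 0.42 below the median of all miRs, the same distance as on the deposited scale, which a constant per array cannot change. The call was lost (adjusted p from 0.0624 to 0.114) when any 1 of sham 2, sham 3, sham 4, HF 1, HF 2, HF 3 and HF 5 was left out, with fold changes from -0.45 to -0.59. It was kept without sham 1 (-0.66, adjusted p = 0.0226) and without HF 4 (-0.65, adjusted p = 0.0224). Over all alternatives the adjusted p ranged from 0.0129 to 0.360.

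miR-181a-1*, the corresponding arm of the gene on chromosome 1, was also dim, with a mean 1.94 log2 units above the mean threshold. It read 7.17, 7.48, 7.48 and 7.48 in sham, and 7.49, 7.27, 7.24, 7.60 and 7.64 in HF. Of the HF mice, 2 lay within the sham range and 3 above it, and the log2 fold change was 0.05 (95% CI -0.26 to 0.36, adjusted p = 0.849).

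**Figure D2:**
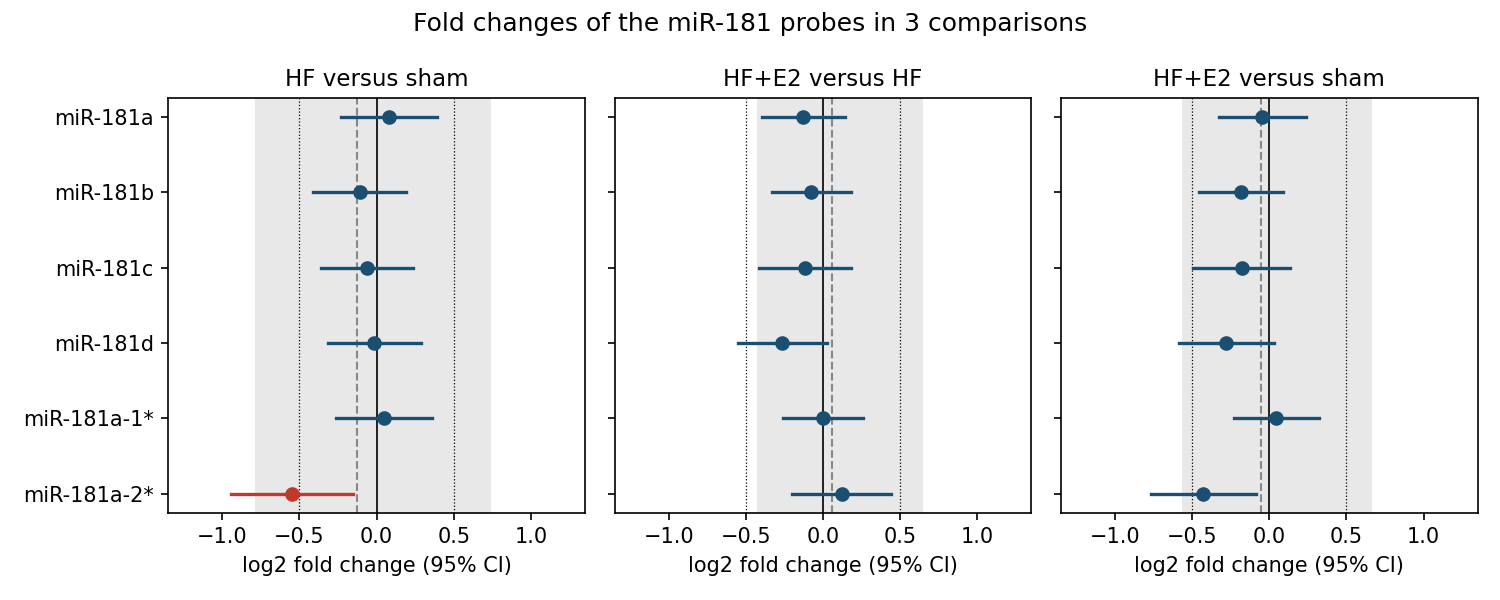
Log2 fold changes of the 6 miR-181 probes (points) with 95% confidence intervals (lines) in the 3 comparisons, with the probe that was called in red; grey bands hold the 5th to 95th percentile of all 520 tested miRs, dashed lines mark their median, and dotted lines mark 0.5 in either direction. Every fold change lies within the grey band of its comparison, and 1 probe, miR-181a-2* in HF versus sham at -0.55, is called.

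Differences between 2 probes on the same array do not depend on the constant of that array, and were compared for 6 pairs in 3 comparisons. They do not remove a shift that differs between dim and bright miRs, which had medians of -0.27 and -0.02 in HF versus sham. miR-181a is bright, and both asterisk arms are dim. Of these 18 tests, 4 had an exact permutation p under 0.05 and 0 passed after Benjamini-Hochberg adjustment, with a smallest adjusted p of 0.179. The adjusted result therefore says little about any single pair, and the values are given below with both p-values. Of single miRs, 21.5% did not overlap between HF and sham. No such share was computed for within-array differences.

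The signal of miR-181a minus that of miR-181a-2* was 6.70, 6.58, 6.99 and 6.61 log2 units in sham. In HF it was 7.29, 7.73, 7.22, 7.02 and 7.50, so that every HF mouse lay above every sham mouse, although HF 4 did so by a small margin. The means differed by 0.63 log2 units (6.72 ± 0.19, n = 4, against 7.35 ± 0.27, n = 5; exact permutation p = 0.0159, adjusted p = 0.179). With estradiol the difference was 7.10 ± 0.20 (n = 5), which was 0.38 above sham (exact permutation p = 0.0317, adjusted p = 0.179) and 0.25 below HF (p = 0.143, exact permutation). Leaving out 1 mouse at a time moved the gap between HF and sham between 0.54 and 0.72.

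The same difference taken with miR-181a-1* averaged 6.71 ± 0.10 (SD, n = 4) for sham, 6.75 ± 0.17 (n = 5) for HF and 6.62 ± 0.09 (n = 5) for HF+E2 mice. HF differed from sham by 0.04 log2 units (exact permutation p = 0.706). The signal of miR-181a-1* minus that of miR-181a-2* ranged from -0.21 to 0.22 in sham, from 0.33 to 0.84 in HF and from 0.25 to 0.77 in HF+E2. The sham range and the other ranges did not overlap, and this pair, chosen after its values were seen, is given with no test. How often other pairs of probes separate in this way was not computed.

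miR-181a and miR-181b are encoded side by side on both chromosome 1 and chromosome 2, and their signals cannot be assigned to either cluster. miR-181a minus miR-181b was 2.38, 2.42, 2.45 and 2.39 in sham. It was 2.51, 2.69, 2.44, 2.604 and 2.75 in HF, and 2.46, 2.48, 2.54, 2.75 and 2.51 in HF+E2. The 4 sham mice lay within 0.07 log2 units of each other, and all HF+E2 mice and 4 of 5 HF mice lay above them. The gap was 0.19 between HF and sham (exact permutation p = 0.0397) and 0.14 between HF+E2 and sham (p = 0.0238, exact permutation), both with an adjusted p of 0.179. The pairs miR-181c and miR-181d, miR-181a and miR-181c, and miR-181b and miR-181d gave exact permutation p-values of 0.0873 or more in all 3 comparisons.

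**Figure D3:**
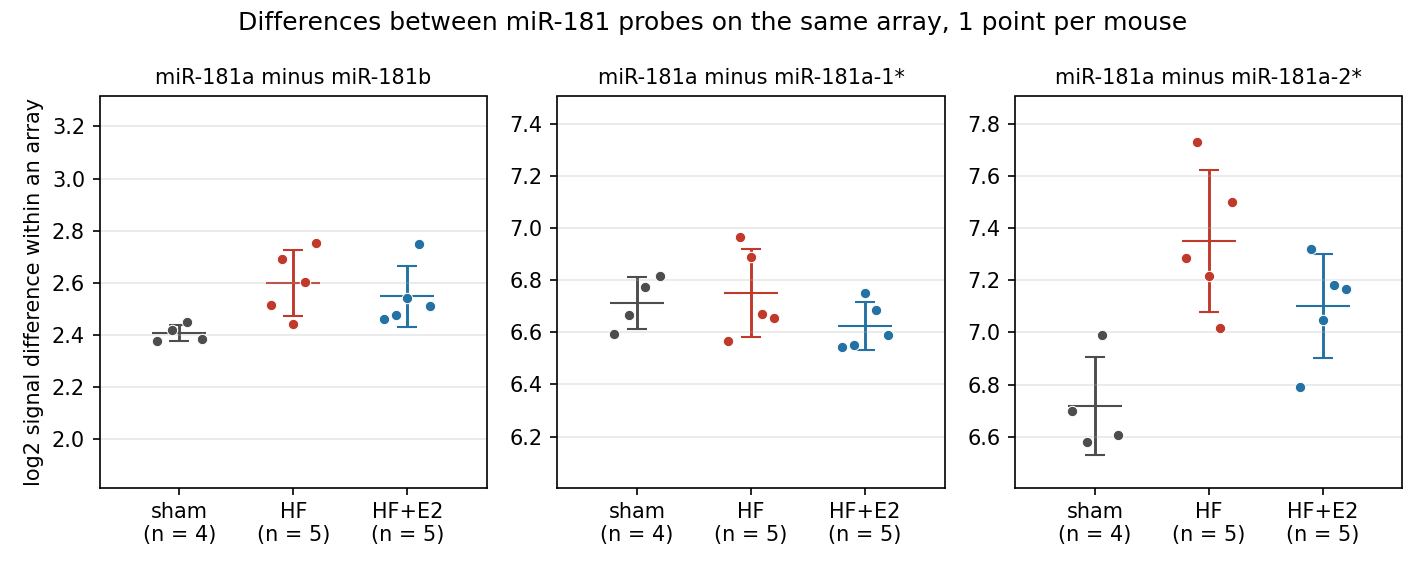
Log2 signal of miR-181a minus that of miR-181b, miR-181a-1* and miR-181a-2* on the same array, with 1 point per mouse, a bar at the group mean and whiskers of 1 SD. The difference from miR-181a-2* is higher in all HF mice (7.02 to 7.73) than in all sham mice (6.58 to 6.99), whereas the difference from miR-181a-1* overlaps between the 3 groups. How often within-array differences of other probes separate HF from sham was not computed.

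Whether estradiol changed the family in failing hearts was tested in a fit of all 14 arrays. Of all miRs, 63 were called in HF+E2 versus HF, or 12.1%, and 0 of the 6 miR-181 probes, with 0 at an unadjusted p under 0.05 in limma, against 26.3% of all miRs. Among bright and unsaturated miRs, the class of the 4 main arms, 1.96% were called, against 15.2% of dim miRs and 57.1% of those saturated on 1 or more arrays. The count of 63 fell to between 5 and 23 when any 1 of HF 1, HF 4, HF 5, HF+E2 2, HF+E2 3, HF+E2 4 and HF+E2 5 was left out, and the count of 0 did not change. The probe of largest shift was miR-181d, at -0.26 (95% CI -0.55 to 0.03, adjusted p = 0.224; exact permutation p = 0.0794), with 4 of 5 HF+E2 mice below the HF mean. miR-181a was at -0.13, miR-181b at -0.08, miR-181c at -0.12 and miR-181a-1* at -0.00, each with an adjusted p of 0.581 or more, and the signs of miR-181a, miR-181b, miR-181c and miR-181a-1* turned under 1 or more other scalings. The median of the 4 main arms was -0.12, against 0.06 over all miRs and -0.04 over bright and unsaturated miRs.

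miR-181a-2* did not pass in HF+E2 versus HF. It was 7.04, 6.86, 7.12, 6.98 and 6.84 in the HF+E2 mice, of which 1 mouse lay below the HF mean, and differed from HF by 0.12 log2 units (95% CI -0.20 to 0.44, adjusted p = 0.680). This difference was between 0.04 and 0.22 with 1 mouse left out, -0.00 with quantile normalization of scaled values and -0.50 without scaling. Of these mice, 4 lay below every sham mouse. Against sham the difference was -0.43 (95% CI -0.77 to -0.08), which did not pass after adjustment (limma adjusted p = 0.117; exact permutation p = 0.0159 unadjusted). With arrays weighted by their quality it did pass, at -0.52 (limma adjusted p = 0.0129).

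In HF+E2 versus sham, 44 of all miRs were called, or 8.46%, and 0 of the 6 miR-181 probes, with 1, miR-181a-2*, at an unadjusted p under 0.05, against 25.6% of all miRs. The count of 44 became 29 without HF+E2 5. miR-181d was at -0.28 (95% CI -0.59 to 0.03, adjusted p = 0.245), miR-181b at -0.19 (adjusted p = 0.393) and miR-181c at -0.18 (adjusted p = 0.50). miR-181a, at -0.04, turned positive under 4 other scalings, the largest being 0.12, and miR-181a-1* was at 0.04. HF and HF+E2 were each compared with the same 4 sham mice. Where HF and HF+E2 arrays had a header code in common, HF 5 stood against 3 HF+E2 mice. There the mean of HF+E2 minus HF was -0.23 for miR-181a, 0.02 for miR-181b, -0.12 for miR-181c, -0.14 for miR-181d, -0.19 for miR-181a-1* and 0.22 for miR-181a-2*. None passed in limma with the code as a fixed block, which gives these same differences (adjusted p from 0.687 to 0.967).

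**Figure D4:**
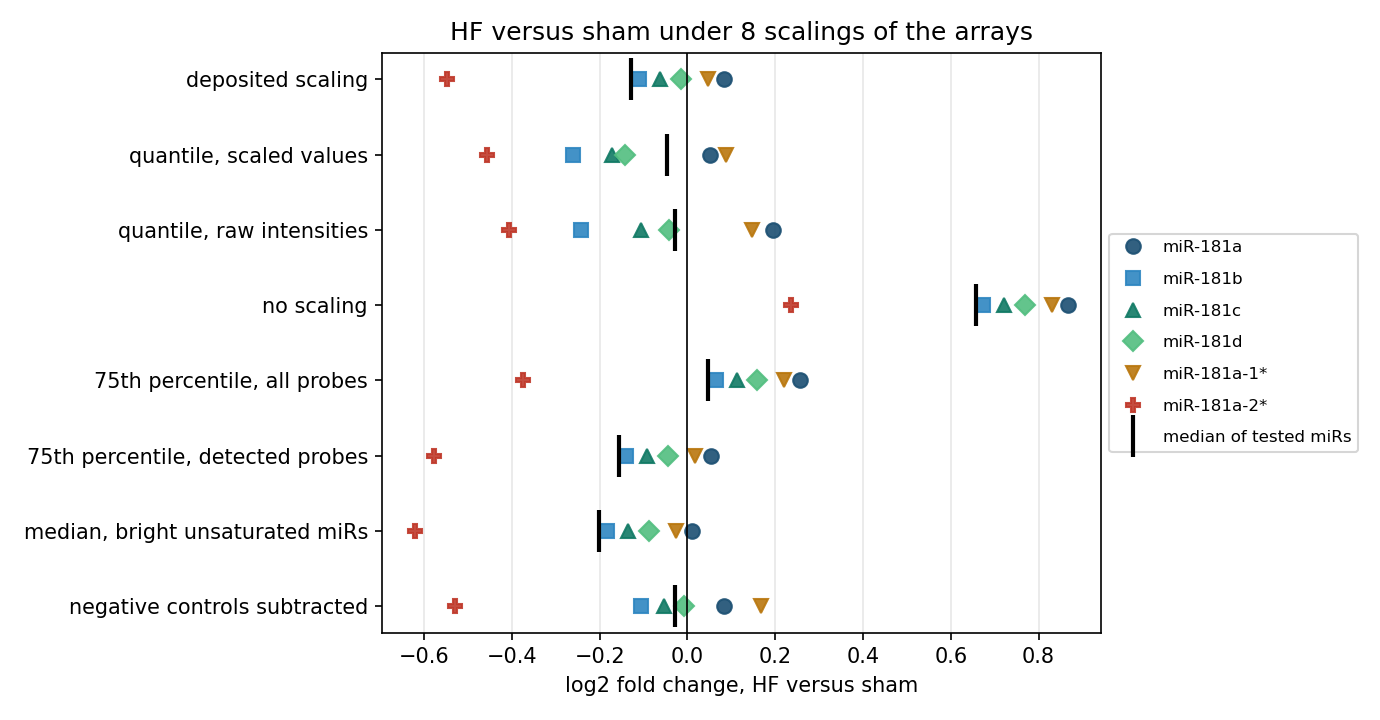
Log2 fold change of the 6 miR-181 probes in HF versus sham (coloured symbols) and the median of the tested miRs (black bars) under the deposited scaling and 7 others. Unscaled values move all symbols and the median upward together, to a median of 0.66, and miR-181a-2* lies below the median of the tested miRs under every scaling, by 0.38 to 0.50. Scalings that only add a constant to each array leave this distance the same, so they do not count as separate support.

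Other probes for the opposite arms and for other species were read after their values were seen. miR-181d*, at the lower end of the dim range, was 6.37, 6.01, 6.23 and 6.18 in sham and 5.48, 5.80, 5.99, 5.52 and 5.55 in HF. The groups did not overlap, as for 21.5% of all miRs, and it was called lower by limma (-0.53, SE 0.15, adjusted p = 0.0215). In HF+E2 it read 6.08 ± 0.21 (n = 5), 0.41 above HF (adjusted p = 0.0643). miR-181c* did not pass, at -0.10 in HF versus sham (adjusted p = 0.636). miR-181b-1* and miR-181b-2* were above threshold on 0 arrays.

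The human probe for miR-181a-2* was lower in HF than in sham by 0.75 log2 units, at 5.74 ± 0.13 (n = 5) against 6.49 ± 0.35 (n = 4). The groups did not overlap, as for 21.5% of all tested mouse miRs. Dim mouse miRs had a median of -0.27 in the same comparison, and this human probe lay near the threshold. Over the 14 arrays its values had r = 0.75 with the mouse miR-181a-2* probe and 0.71 with that of miR-181b. The rat probe for this arm was above threshold on 0 arrays. The macaque probe for miR-181b, like the mouse probe, differed little, by -0.02 in HF versus sham, with r = 0.85 between both probes. These correlations are descriptions over 14 arrays on which the probes had the same sample and the same constant. The mouse miR-181b and miR-181a-2* differ in sequence and in seed, and the sequences of the human and macaque probes were not compared.

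Over the 14 arrays, Pearson r between 2 main arms ranged from 0.51, for miR-181b and miR-181c, to 0.78. For comparison, miR-92a, outside the family, had r = 0.87 with miR-181a. The highest Pearson r was 0.78 for miR-181c and miR-181d, neighbours on chromosome 8, followed by 0.73 for miR-181a and miR-181d and 0.69 for miR-181a and miR-181b. miR-181a-2* had r = 0.14 with miR-181a and 0.58 with miR-181b, and miR-181a-1* had r = 0.65 with miR-181a. With the group means removed, r was 0.39 for miR-181a and miR-181a-2* and 0.69 for miR-181a and miR-181a-1*. All points of a correlation come from the same arrays and scaling.

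The miRs whose pattern was most like each main arm were taken from 251 bright and unsaturated miRs outside the family, by Pearson r over the 14 arrays. For miR-181a they were miR-92a (0.87), miR-20a (0.78) and miR-322* (0.76). For miR-181b they were miR-203 (0.83), miR-101a (0.83) and miR-192 (0.71), of which miR-192 was lower in HF by 0.47 log2 units, short of the fold required for a call. For miR-181c they were miR-144* (0.73), miR-25 (0.68) and miR-150 (0.67), and miR-144*, an arm of a red blood cell miR, was called lower in HF (-0.51, adjusted p = 0.0431). For miR-181d they were miR-92a (0.76), miR-374 (0.76) and miR-106a (0.73), of which miR-106a was called lower in HF+E2 versus HF (-0.57, adjusted p = 0.0198). In HF+E2 versus sham, limma called miR-374 (-0.70, adjusted p = 0.0335) and miR-144* (-0.73, adjusted p = 0.0477) lower. Of all miRs, 8.46% were called in that comparison.

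Other miRs of the processes in which miR-181 is known were read from 3 lists of 8. From 8 miRs listed as restraining NF-kB or vascular inflammation, miR-155 among them, 3 rose in HF versus sham, 1 was called lower and 4 did not pass. Among all miRs, 8.46% were called higher and 18.3% lower. The role of each listed miR was not tested. miR-146b rose by 1.22 log2 units (SE 0.16, adjusted p = 0.00103), miR-146a, which targets adaptors upstream of NF-kB, by 0.73 (adjusted p = 0.0167), and the myeloid miR-223 by 0.65 (adjusted p = 0.0137). The call of the endothelial miR-126-3p was that of a probe saturated on 14 arrays. The median of this list was -0.05, against -0.13 over all miRs. In HF+E2 versus HF, 1 of the 8 was called (12.1% of all miRs), again the saturated miR-126-3p, and in HF+E2 versus sham 1 (8.46% of all miRs), miR-146b, which was higher by 1.23.

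Of 8 miRs reported in heart mitochondria, 2 rose in HF versus sham, 5 were called lower and 1 did not pass, with 5 of the 8 saturated on 1 or more arrays. Among all miRs 26.7% were called, and among those saturated on 1 or more arrays 73.8%. miR-21, abundant in fibroblasts of failing hearts, rose by 1.34 log2 units (adjusted p = 0.00103), and miR-499, which is encoded in a myosin gene, fell by 0.59 (adjusted p = 0.00867). The other calls of lower miRs were of probes saturated on 12 or 14 arrays. Of 8 miRs of T cells and lymphocytes, 2 were called in HF versus sham (26.7% of all miRs), miR-146a and miR-16, which was saturated on 14 arrays. The other 6 did not pass, among them miR-150 at -0.31 (adjusted p = 0.132) and miR-155 at -0.13 (adjusted p = 0.749). In HF+E2 versus sham 0 of these 8 were called by limma, against 8.46% of all miRs.

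Markers of other cells moved with heart failure beside the lower miR-181a-2* signal. All 3 fibroblast miRs were called higher in HF versus sham, of which miR-199a-5p was saturated on 3 arrays and miR-199a-3p on 6, and so were 3 of 6 white blood cell miRs, against 8.46% of all miRs. Of the 6 heart muscle miRs, 1 was called higher and 5 lower, against 8.46% and 18.3% of all miRs. Of these, miR-1, miR-133a and miR-133b were saturated on 14 arrays. Each was at -0.785, against -0.784 for the difference in the array constant. The unsaturated miR-208b rose by 5.11 log2 units (adjusted p = 3.05e-05), and miR-208a-3p fell by 0.83 (adjusted p = 0.0124) and miR-499 by 0.59. The mean over the 6 ranged from 14.26 to 14.59 in sham, from 14.39 to 14.95 in HF and from 14.32 to 15.01 in HF+E2. This mean combines the rise of miR-208b with the 5 miRs called lower. The mean scaled log2 signal over the 3 fibroblast miRs ranged from 13.29 to 13.85 in sham, from 14.39 to 14.90 in HF and from 14.42 to 14.84 in HF+E2. Over the 6 white blood cell miRs it ranged from 10.56 to 10.92, from 10.91 to 11.22 and from 10.67 to 11.24. The 3 red blood cell miRs, 1 of them saturated, ranged from 13.43 to 13.65, from 12.69 to 13.30 and from 12.83 to 13.53. Of these 3, 1 was called lower in HF versus sham, against 18.3% of all miRs. It was miR-451, saturated on 11 arrays, at -0.784, the difference in the array constant. In limma, miR-144 (-0.67, adjusted p = 0.0722) and miR-486 (-0.15, adjusted p = 0.334) did not pass. None of these markers was at 0, and their part in the miR-181 values was not tested.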

How the data were processed

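Per the labels, total RNA of powdered hearts was purified to low molecular weight RNA, labelled at its 3′ end with a fluorescent dye and hybridized to arrays with 3 spots per probe. The authors deposited background-subtracted intensity values per spot, and scaled log2 values of 520 mouse miRs above a threshold set from negative controls. These log2 values equal the mean of log2 over the 3 spots plus 1 constant per array (largest departure 0.0). The deposited p-values, false discovery rates and fold changes of the authors' own comparisons were not used. All 14 arrays were assigned from the labels.

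HF was compared with sham on 9 arrays and HF+E2 with each on 14, with limma 3.58.1 (lmFit, eBayes; R 4.3.3) on the scaled log2 values and Benjamini-Hochberg adjustment over 520 miRs. The methods name the call thresholds for the arrays and, for data in general, Student's t-test, which was run as an alternative. The methods count 1 mouse per sham and HF array; for HF+E2, where neither labels nor methods do, p-values cover the spread between arrays, called mice here. Single values were tested with exact two-sided permutation. The number of arrays limits the precision. A spot at 65000 or more counted as saturated, and a probe with 2 such spots. Scripts were tested on simulated data. Members and lists were chosen with earlier results of these data known; named miRs were the members, up to 4 per list with the smallest p in HF versus sham, and the 3 most like each main arm. Sequences came from the deposited table and from RefSeq (GRCm38.p6).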

Additional observations from a re-analysis of the deposited data

Results flagged for a closer look

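In the sham group, miR-181a-1* was 7.17 in sham 1, far below the other 3 sham mice, which lay at 7.48. The gap to the next mouse was 0.97 of the range of the group (Dixon's test, 18 groups of values tested, in which chance alone flags about 1 in 20). Sham 1 was also the lowest sham mouse for the other 5 miR-181 probes, and its constant was 0.10, against 0.39 to 0.46 for the other sham arrays. Without scaling, its miR-181a-1* intensity was 135, within the 130.0 to 137 of the group. Without sham 1, the fold change of miR-181a-1* in HF versus sham was -0.03 in place of 0.05, and that of miR-181a -0.03 in place of 0.08. The cause was not tested.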

How the results depend on the processing

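Of the 474 fold changes of the 6 probes recomputed under other settings, 47 changed sign with no call in either the main fit or the other setting. The largest of these 47 was 0.50 in size. Without scaling, 5 of the 6 probes were called higher in HF versus sham, with the sign turned for miR-181b (0.67), miR-181c (0.72), miR-181d (0.77) and, uncalled, miR-181a-2* (0.24), and 5 were called lower in HF+E2 versus HF. In HF versus sham, 0 probes were called with quantile normalization of scaled or raw values, either 75th percentile as scale, negative controls subtracted, the median of the 3 spots, no detection filter, no saturated miRs, the methods' t-test and, an alternative added after seeing the data, no arrays of code 650; miR-181a-2* then had fold changes of -0.37 to -0.58 (adjusted p from 0.0511 to 0.226). Without dim miRs, which leaves out miR-181a-2* itself, 0 of 4 were called. Leaving out 1 mouse gave 0 to 1. The call of miR-181a-2* was kept with the median of bright unsaturated miRs as scale, all 14 arrays, array weights, the array code as a random block and the replicate number as a block (-0.53, adjusted p = 0.0454). In HF+E2 versus sham, array weights called 1 probe. Whether mice with the same replicate number were paired was not tested. The 13 same-numbered pairs had correlations of deviations from -0.30 to 0.46. For 7 of the 14 arrays the best match carried the same number, and no chance level was computed for this count. Over all miRs, HF versus sham gave 26.7% called (44 higher, 95 lower) and 27.7% (49, 95) with the block. This was 14.8% (45, 32) and 10.6% (42, 13) with quantile normalization of scaled and raw values, 46.9% (244, 0) without scaling, 24.0% (72, 53) and 16.7% (28, 59) with the 75th percentile of all and of detected probes, 24.0% (63, 62) with negative controls subtracted, 26.1% (42, 229) without the detection filter, 27.3% (34, 47) without dim miRs and 19.2% to 32.3% with 1 mouse left out. HF+E2 versus HF gave 12.1% (58, 5). This was 0.577% (2, 1) and 0.769% (2, 2) with the quantile settings, 32.5% (0, 169) without scaling, 2.50% (9, 4) with the 75th percentile of all probes, 0.192% (0, 1) with negative controls subtracted, 29.5% (300, 6) without the detection filter, 1.01% (0, 3) without dim miRs, 6.90% (28, 5) without saturated miRs, 3.85% (17, 3) with only 2 groups fitted, 0.962% (4, 1) with the methods' t-test, 21.0% (92, 17) with array weights, 0 with the array code as a fixed block, 22.9% (104, 15) without code 650 and 0.962% to 16.7% with 1 mouse left out. HF+E2 versus sham gave 8.46% (27, 17). This was 3.85% (20, 0) without scaling, 8.27% (36, 7), 8.85% (36, 10), 5.77% (27, 3) and 5.96% (22, 9) with quantile normalization of raw values, both 75th percentiles and the median of bright miRs, 2.41% (17, 8) without the detection filter, 5.00% (15, 11) with the methods' t-test and 5.58% to 9.23% with 1 mouse left out. The causes of these shifts were not tested. Of the within-array differences, 0 passed after adjustment under the alternatives run, where the number of arrays again limited the smallest possible p.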
